A study of Mus musculus with 28 samples.

Results

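The cytosolic heat shock chaperones and co-chaperones examined here are 9 genes chosen by name from the 1024 genes of the deposited table: Hsp90aa1, Hsp90ab1, Hspa8, Hspa12a, Cryab, Stip1, Chordc1, Dnajc6 and Cacybp. All 9 were found. Each had 1 value in each of 28 single neurons of the primary motor cortex of CD1 mice, collected on postnatal day 30. The embryos had been electroporated in utero on embryonic day 15 with 3 kinds of construct: pCAGIG, which marks every electroporated cell with GFP, pHSE-FLPo, in which a heat shock response element drives the recombinase FLPo, and pFRT-RFP, a reporter that the recombinase turns on. The dams received intraperitoneal ethanol (EtOH), with doses of 4.0 and 1.0 g/kg named in the labels, or PBS alone, daily on embryonic days 16 and 17. The groups were 7 GFP-positive, RFP-negative neurons after EtOH, 15 GFP-positive, RFP-positive neurons after EtOH, and 6 GFP-positive, RFP-negative neurons after PBS. GFP shows uptake of pCAGIG only, so whether each RFP-negative neuron also took up the other constructs is not known. RFP marks activity of the heat shock element at some time before collection, not at collection. The labels state neither the dose nor the dam of a given neuron, so each group counts as 1 sample and no p-value is given.

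Hsp90 is an abundant cytosolic chaperone that binds client proteins late in their folding, and Hsc70, the product of Hspa8, is the constitutive Hsp70 that binds them early. Co-chaperones direct this work: Stip1 (Hop) bridges Hsp70 and Hsp90, and proteins with a J domain stimulate the ATPase of Hsp70. The heat shock factor Hsf1 drives many of these genes during stress through heat shock elements, which are repeats of GAA and its complement TTC in alternating direction. In neurons, Hsc70 also strips clathrin from endocytic vesicles together with auxilin, the product of Dnajc6.

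The coding ends of the genes for Hsp90 and Hsc70 are shown because they encode the shared C-terminal tail that Stip1 binds. The last 60 coding bases in the GENCODE M21 transcripts (GRCm38) are given, with the last 4 codons before the stop codon in capitals.
Hsp90aa1: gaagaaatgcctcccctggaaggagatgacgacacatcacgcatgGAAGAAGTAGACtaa
Hsp90ab1: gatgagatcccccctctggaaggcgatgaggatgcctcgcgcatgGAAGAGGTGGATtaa
Hspa8: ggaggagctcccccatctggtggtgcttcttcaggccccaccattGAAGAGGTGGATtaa
The 4 codons are the same in Hsp90ab1 and Hspa8. Hsp90aa1 shares the first of them and uses synonymous codons in the others. Over 2174 aligned coding bases, Hsp90aa1 and Hsp90ab1 were identical at 76.6%.

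The start of Chordc1 is shown because the reporter of the study is built on a heat shock element. RefSeq promoter windows (GRCm38.p6), each from 250 bases before to 50 after a start, were present for 5 of the 9 genes, namely Cacybp, Chordc1, Dnajc6, Hspa12a and Stip1, with 7 windows in all. Pairs of units, spelled GAANNTTC or TTCNNGAA and each identical on both strands, were found in Chordc1 and in 0 windows of the other 4 genes. Such a pair occurs in 15.1% of all 32851 windows. A run of 3 alternating units with the same spacing, starting with GAA or TTC and searched on both strands with overlaps allowed, occurs in 0.603% of them, and again in Chordc1 alone of the 5 genes. The run in Chordc1 holds 5 units in a row, shown in capitals, at chr9:18292263-18292285 on the plus strand.
Chordc1 heat shock element run: GAAcgTTCggGAAaaTTCctGAA
It spans positions -4 to 18, counted from 0 at the first base of the RefSeq start, and the GENCODE M21 model of the gene begins farther upstream, at 18292125. The 250 bases before the RefSeq starts of Chordc1 (chr9:18292017-18292266, plus strand) and of Cacybp (chr1:160212893-160213142, minus strand) are given for comparison, the latter because Cacybp had the widest difference between groups among the 9 genes. Capitals mark GGGCGG, the GC box, on either strand, which 32.7% of all 250-base upstream stretches hold, and CCAAT was found in neither.
Chordc1 upstream: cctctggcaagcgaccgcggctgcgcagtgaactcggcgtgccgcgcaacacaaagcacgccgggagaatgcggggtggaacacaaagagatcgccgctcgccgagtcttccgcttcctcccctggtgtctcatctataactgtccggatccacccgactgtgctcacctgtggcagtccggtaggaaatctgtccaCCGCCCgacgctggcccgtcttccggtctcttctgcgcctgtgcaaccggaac
Cacybp upstream: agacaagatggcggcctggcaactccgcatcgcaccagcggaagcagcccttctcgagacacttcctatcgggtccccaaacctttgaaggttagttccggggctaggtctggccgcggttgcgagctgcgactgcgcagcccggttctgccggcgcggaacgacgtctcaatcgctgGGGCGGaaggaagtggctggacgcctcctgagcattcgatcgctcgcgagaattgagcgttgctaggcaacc
These matches describe letters and say nothing of binding.

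The values were log-scale levels, taken as log2, and ranged from 1.00 to 13.2 over the table. They form a low mode, under a trough of the histogram at 4, and modes above it, so each gene is described by its level and by how many neurons lay above 4. A transcript with a value under 4 may still have been present in the neuron. The sequencing depth is unknown. Neurons had between 273 and 434 of the 1024 genes above the trough, with medians of 327, 357 and 323.5 in RFP-negative EtOH, RFP-positive EtOH and PBS neurons. Nrgn, a marker of cortical pyramidal neurons, was above it in 27 of 28 neurons, while the table held 1 of the 8 pyramidal markers looked for. Glial transcripts were present as well: the myelin gene Mbp was above the trough in 9 neurons and the astrocyte transporter Slc1a2 in 15. Of the neurons, 24 shared at least 5 exactly equal values with others and 4 shared fewer (neuron 1 of the RFP-negative EtOH group, neurons 1 and 2 of the RFP-positive group and neuron 6 of the PBS group). Values within the 24 are given beside the main differences below.

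Hsp90aa1, Hsp90ab1 and Hspa8 lay above the trough in nearly every neuron of all 3 groups, and the other members in a minority or about an even share. Of 28 neurons, 27 were above it for each Hsp90 gene and 25 for Hspa8, against 15 for Stip1, 14 for Cacybp, 11 for Dnajc6, 6 for Cryab, 5 for Hspa12a and 3 for Chordc1. The median gene of the table was above it in 8 neurons. Only 12 genes of the table, the Hsp90 pair included, reached 27 neurons or more. These counts were taken at the same value for every gene, and whether the deposited values are per transcript length is not stated, so no level is ranked between genes.

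**Figure D1:**
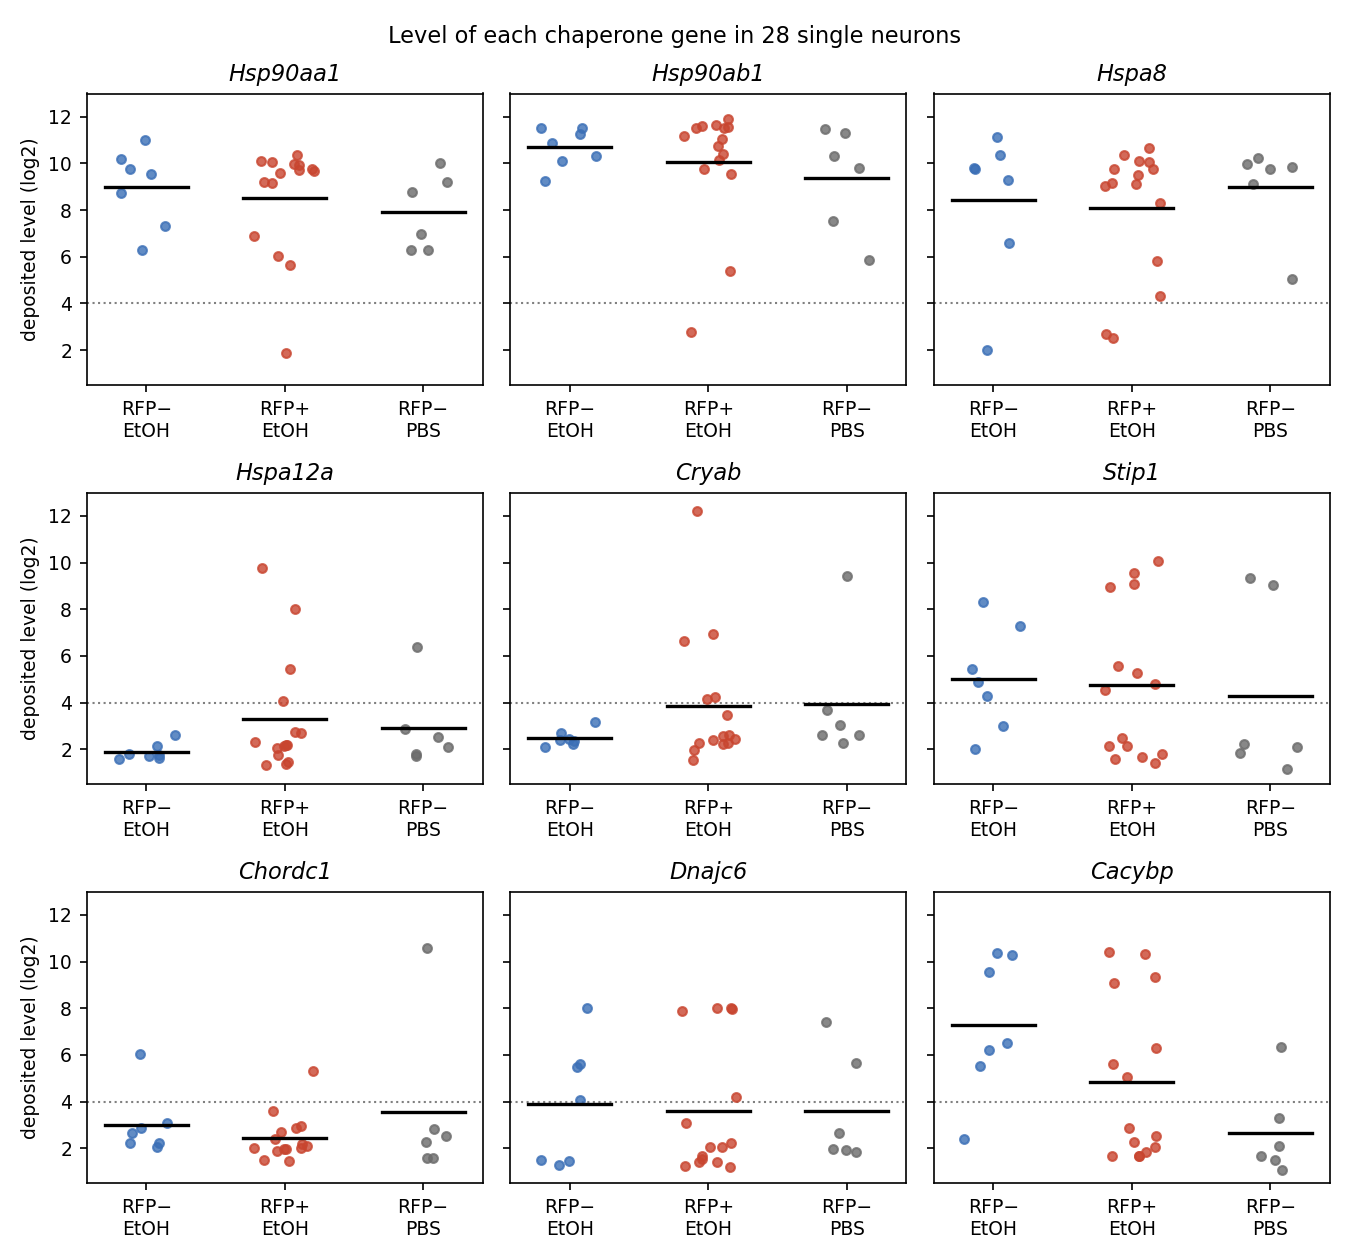
Deposited level (log2) of each of the 9 genes in RFP-negative EtOH (n = 7), RFP-positive EtOH (n = 15) and RFP-negative PBS (n = 6) neurons. Points are neurons, black lines are group means and the dotted line is the trough at 4. Hsp90aa1, Hsp90ab1 and Hspa8 are high in nearly all neurons, and the other genes split into low and high neurons.

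Hsp90ab1 (ENSMUSG00000023944, chromosome 17, 45567775 to 45573271) encodes the constitutive Hsp90 beta. Its lowest, median and highest levels were 9.25, 10.9 and 11.5 in RFP-negative EtOH, 2.79, 11.1 and 11.9 in RFP-positive EtOH, and 5.88, 10.0 and 11.5 in PBS neurons. The groups overlapped, and the lowest values belonged to RFP-positive EtOH neurons 5 and 14 (2.79 and 5.41) and PBS neuron 5 (5.88). Means were 10.7 ± 0.84 (SD, n = 7), 10.1 ± 2.57 (SD, n = 15) and 9.38 ± 2.23 (SD, n = 6).

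Hsp90aa1 (ENSMUSG00000021270, chromosome 12, 110690605 to 110702728) encodes Hsp90 alpha, the more stress-inducible form. Its lowest, median and highest levels were 6.29, 9.54 and 11.02 in RFP-negative EtOH, 1.90, 9.67 and 10.4 in RFP-positive EtOH, and 6.29, 7.87 and 10.0 in PBS neurons. The ranges overlapped, and all but 1 neuron exceeded 4. Means were 8.98 ± 1.67, 8.53 ± 2.39 and 7.92 ± 1.61 in the same order. RFP-positive EtOH neuron 5 was the only neuron below the trough for Hsp90aa1, at 1.90, and the only one below it for Hsp90ab1. The same neuron had Hspa8 at 9.17, Stip1 at 10.1 and Nrgn at 5.85, with 311 genes above the trough.

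Hspa8 (ENSMUSG00000015656, chromosome 9, 40800984 to 40810087) had lowest, median and highest levels of 1.99, 9.76 and 11.1 in RFP-negative EtOH, 2.53, 9.17 and 10.7 in RFP-positive EtOH, and 5.05, 9.81 and 10.2 in PBS neurons. It was low in RFP-negative EtOH neuron 2 (1.99) and in RFP-positive EtOH neurons 14 and 15 (2.69 and 2.53), all of which had both Hsp90 genes above the trough. Means were 8.42 ± 3.18, 8.08 ± 2.80 and 8.998 ± 1.97, closer together than the SD of any group.

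Reads of 51 bases cannot always be assigned to these genes. Of the 51-base stretches of the longest-coding transcript, 74.6% in Hspa8 and 58.3% in Hsp90aa1 also occur, on either strand, in transcripts of other annotated genes, mainly processed pseudogenes such as Gm15459 and Gm12346. The share was 18.9% in Cryab, where all of it is Hspb2, the small heat shock gene that overlaps it by 252 exonic bases on the opposite strand. It was 7.57% in Cacybp, 5.54% in Stip1, 4.25% in Hsp90ab1 and 0.296% in Chordc1. None was found for Hspa12a and Dnajc6, although 166 exonic bases of Hspa12a overlap Eno4 on the opposite strand. The kits named in the labels do not mark strand and the handling of multiply matching reads is not given, so values of Hspa8, Hsp90aa1 and Cryab in particular can include reads from these other loci.

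Hspa12a and Cryab were low in every RFP-negative EtOH neuron and high in a few neurons of the other groups. This was not particular to them. Hsp90b1, Cct3, Picalm and Aldoc, taken up below, were also under the trough in all 7 and above it in some neurons of both other groups. The share of all genes that do so was not counted. Hspa12a (ENSMUSG00000025092, chromosome 19, 58795750 to 58943654) encodes a distant member of the Hsp70 family that is enriched in brain. Its lowest, median and highest levels were 1.59, 1.74 and 2.62 in RFP-negative EtOH, 1.32, 2.19 and 9.76 in RFP-positive EtOH, and 1.72, 2.31 and 6.40 in PBS neurons. It lay above the trough in RFP-positive EtOH neurons 2, 3, 9 and 10 (5.44, 8.02, 9.76 and 4.06) and in PBS neuron 6, or 0 of 7, 4 of 15 and 1 of 6 in the 3 groups. The share was 26.7% (exact Clopper-Pearson interval 7.79 to 55.1%) in RFP-positive EtOH neurons, while 0 of 7 is compatible with shares up to 42.9%, taking 3 neurons as the bound. Such intervals and bounds reflect counting error alone.

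Cryab (ENSMUSG00000032060, chromosome 9, 50751325 to 50756636) encodes alpha-B crystallin, a small heat shock protein that holds unfolded proteins in solution and that, in brain, is strongest in oligodendrocytes and astrocytes. Its lowest, median and highest levels were 2.102, 2.38 and 3.18 in RFP-negative EtOH, 1.55, 2.55 and 12.2 in RFP-positive EtOH, and 2.27, 2.81 and 9.43 in PBS neurons. Above the trough were RFP-positive EtOH neurons 8, 12, 13, 14 and 15 (4.14, 12.2, 4.23, 6.95 and 6.62) and PBS neuron 6 (9.43). The medians of the 3 groups differed little, and the spread came from these 6 neurons. The share above the trough was 33.3% (exact interval 11.8 to 61.6%) in RFP-positive EtOH neurons, 16.7% in PBS neurons and 0 of 7 in RFP-negative EtOH neurons, again with a limit of 42.9%.

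Glial markers were high in some of the Cryab neurons. Slc1a2 was above the trough in 3 of the 6 neurons with Cryab above it and in 12 of the 22 others, Mbp in 2 of 6 and 7 of 22, and Cst3, enriched in microglia, in 2 of 6 and 11 of 22. Aldoc, an astrocyte aldolase, was above it in 2 of 6 and 4 of 22, and the microglial receptor gene Csf1r in 2 of 6 and 2 of 22. RFP-positive EtOH neuron 12, with Cryab at 12.2, had Slc1a2 at 9.53 and Mbp at 3.25. PBS neuron 6 had all 5 of these glial genes above the trough. The table held 2 of 8 astrocyte and 2 of 8 microglial markers looked for. The mean of the 2 astrocyte markers ranged from 1.53 to 5.31, 1.72 to 6.82 and 1.95 to 7.25 in RFP-negative EtOH, RFP-positive EtOH and PBS neurons, and that of the microglial markers from 2.17 to 7.49, 1.76 to 8.31 and 2.02 to 7.26. The part of glial RNA in the Cryab values was not tested.

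Among the co-chaperones, Stip1, Dnajc6 and Cacybp split the neurons, and Chordc1 was low in nearly all. Stip1 (ENSMUSG00000024966, chromosome 19, 7020702 to 7039967) had lowest, median and highest levels of 2.00, 4.86 and 8.29 in RFP-negative EtOH, 1.42, 4.55 and 10.1 in RFP-positive EtOH, and 1.13, 2.15 and 9.32 in PBS neurons. It exceeded the trough in 5 of 7, 8 of 15 and 2 of 6 neurons, or 71.4%, 53.3% and 33.3%. The exact intervals of 29.0 to 96.3%, 26.6 to 78.7% and 4.33 to 77.7% overlap widely. Means were 5.02 ± 2.23, 4.73 ± 3.24 and 4.27 ± 3.82.

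Dnajc6 (ENSMUSG00000028528, chromosome 4, 101496648 to 101642799) had lowest, median and highest levels of 1.26, 4.06 and 8.02 in RFP-negative EtOH, 1.18, 2.06 and 8.03 in RFP-positive EtOH, and 1.83, 2.30 and 7.43 in PBS neurons. It was above the trough in 4 of 7, 5 of 15 and 2 of 6 neurons. The groups overlapped over nearly their whole range, with means of 3.91 ± 2.62, 3.59 ± 2.84 and 3.57 ± 2.39.

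Chordc1 (ENSMUSG00000001774, chromosome 9, 18292125 to 18317442) encodes an Hsp90-binding protein with CHORD zinc-binding domains, and it is the gene with the run of heat shock elements shown above. Its lowest, median and highest levels were 2.04, 2.65 and 6.02 in RFP-negative EtOH, 1.46, 2.07 and 5.29 in RFP-positive EtOH, and 1.57, 2.38 and 10.6 in PBS neurons. A single neuron of each group exceeded the trough: RFP-negative EtOH neuron 5 (6.02), RFP-positive EtOH neuron 11 (5.29) and PBS neuron 1 (10.6). The median was lowest in the RFP-positive group, by less than its SD of 0.97.

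Cacybp (ENSMUSG00000014226, chromosome 1, 160202367 to 160212875) encodes the calcyclin-binding protein, which has a CS domain like that of the Hsp90 co-chaperones p23 and Sgt1 and links the ubiquitin ligase Siah1 to Skp1. Its lowest, median and highest levels were 2.40, 6.53 and 10.4 in RFP-negative EtOH, 1.65, 2.87 and 10.4 in RFP-positive EtOH, and 1.05, 1.88 and 6.35 in PBS neurons. The highest PBS value, in neuron 2, lay below the median of the RFP-negative EtOH neurons, and the other 5 PBS values were under the trough. Of the RFP-negative EtOH neurons, neuron 2 (2.40) was under it as well, and neurons 5 and 7 (6.20 and 5.50) lay just below PBS neuron 2 (6.35), so the groups overlapped. The RFP-positive neurons spanned both. The share above the trough was 85.7% (6 of 7, exact interval 42.1 to 99.6%), 46.7% (7 of 15, 21.3 to 73.4%) and 16.7% (1 of 6, 0.421 to 64.1%).

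The number of the 9 genes above the trough in a neuron had a lowest, median and highest value of 2, 5 and 7 in RFP-negative EtOH, 2, 5 and 7 in RFP-positive EtOH, and 3, 4.5 and 6 in PBS neurons. The groups overlapped. The 2 neurons with 7 genes, RFP-negative EtOH neuron 5 and RFP-positive EtOH neuron 11, had 327 and 273 genes of the table above it, and the latter is the lowest number of any neuron. Both of them were among the 3 neurons with Chordc1 above the trough. The 2 neurons with only 2 genes, RFP-negative EtOH neuron 2 and RFP-positive EtOH neuron 5, had 285 and 311.

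**Figure D2:**
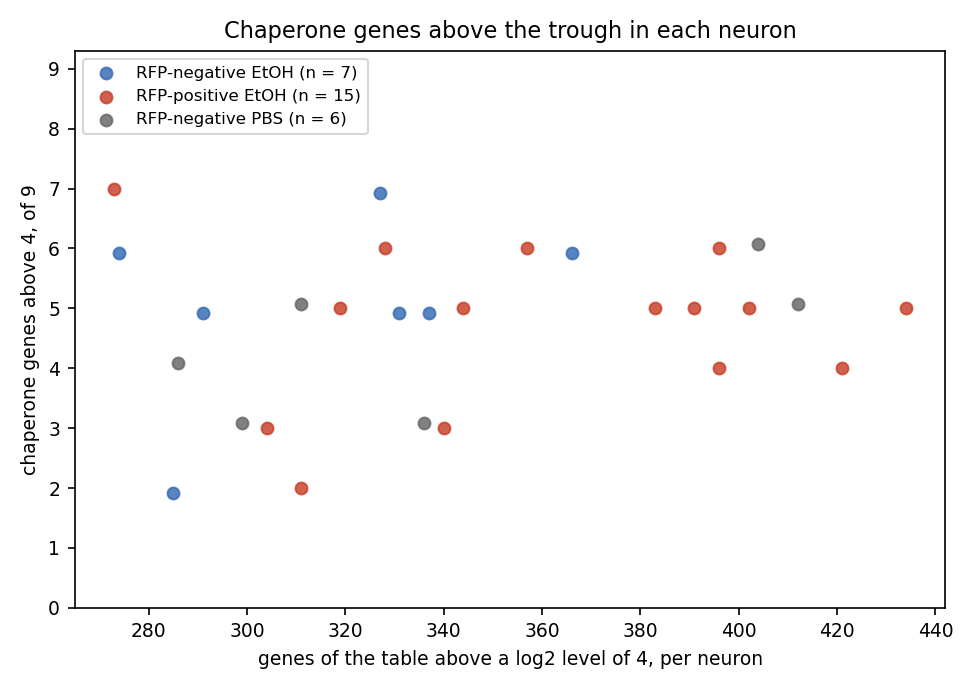
Number of the 9 chaperone genes above a log2 level of 4 (vertical axis) against the number of all 1024 genes above it (horizontal axis, starting above 0), 1 point per neuron, with slight vertical offsets between groups. Neurons with 2, 3 or 7 chaperone genes lie between 273 and 340 genes, all neurons above 344 genes have 4 to 6, and the 3 groups overlap.

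By rank over the neurons, the 9 genes showed little common order. For genes low in most neurons, such as Hspa12a, Cryab and Chordc1, ranks mostly reflect order within the low mode. Their correlations therefore cannot tell whether their high neurons coincide. Over 28 neurons, the 36 pairs of members had Spearman correlations from -0.31 to 0.34 with a median of 0.04, beside a median of 0.02 and quartiles of -0.12 and 0.17 for all 523776 pairs of the table. The points share normalization and unknown depth, and the values describe these neurons only. The highest was between Stip1 and Chordc1 (0.34) and the lowest between Hsp90ab1 and Cryab (-0.31). Stip1 and its partner genes had values of -0.25 with Hsp90aa1, -0.02 with Hsp90ab1 and 0.03 with Hspa8, and auxilin and Hspa8 had 0.28. Hspa12a and Stip1, above the trough in 5 and 15 neurons, were together above it in 0. Chordc1, above it in 3 neurons, also shared 0 of them with Hspa12a and 0 with Cryab, which was above it in 6. Such small numbers leave little room for overlap. All 3 neurons with Chordc1 above the trough also had Stip1 above it. How often such counts occur among all pairs was not computed.

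For each member, the 2 genes with the most similar order of neurons were taken from 989 named genes by Spearman's rho over 28 neurons. As maxima over many genes they are high by selection. For Hsp90ab1 they were Stmn2, a microtubule-destabilising protein of growing axons (0.67, and 0.74 within the 15 RFP-positive neurons), and Cfdp1 (0.61 and 0.79). For Hsp90aa1 they were the myosin gene Myh10 (0.62 and 0.49) and Camk2b, a calmodulin-dependent kinase subunit (0.62 and 0.66). Hspa8 came with the ribosomal protein gene Rps6 (0.53 and 0.40) and Wdr45b (0.53 and 0.56). Stip1 came with Ndufa4, a respiratory chain gene (0.66 and 0.60), which was above the trough in all 15 neurons with Stip1 above it and in 22 neurons in all, and with Fam13c (0.64 and 0.61). Cacybp came with Cox5b, a cytochrome c oxidase subunit (0.65 and 0.51), and Purb (0.61 and 0.71), and Dnajc6 with Spcs3 (0.60 and 0.55) and Atp5g1 (0.59 and 0.69).

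For the genes that were low in most neurons, the likeness rests mainly on the order within the low mode. Chordc1 came with Jakmip3 and Kdm1a (0.89 and 0.87 over 28 neurons), each of which was above the trough in 3 neurons, 2 of them shared with Chordc1. Cryab came with Clec2l (0.81), which shared 2 neurons above the trough with it, and Nelfcd (0.79), which shared 4. Hspa12a came with Snx6 (0.72), sharing 1 neuron, and Nfat5 (0.62), sharing 3.

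Setting RFP-positive beside RFP-negative neurons after EtOH asks how exposed neurons with reporter activity differed from exposed neurons without it. Of the 9 genes, 2 had higher means in RFP-positive neurons, Hspa12a and Cryab, and 7 had lower means. The differences were 1.41 for Hspa12a and 1.38 for Cryab, both smaller than the larger SD of 2.53 and 2.83. Both measured astrocyte markers also had higher means in RFP-positive neurons, Slc1a2 by 1.13 (5.50 against 4.37) and Aldoc by 1.06 (2.91 against 1.85), and their part in the Cryab difference was not tested. Cacybp had the widest lower mean, 4.84 ± 3.43 (SD, n = 15) against 7.27 ± 2.96 (SD, n = 7), a difference of -2.43 that is also smaller than the larger SD. The remaining 6, which include both Hsp90 genes and Hspa8, had differences between -0.64 and -0.28. Of these 6, Chordc1 alone kept its sign under the 6 alternative settings. The signs of Hsp90ab1 and Dnajc6 turned in 3 of the 6, those of Hsp90aa1 and Hspa8 in 2 and that of Stip1 in 1. Without RFP-positive EtOH neuron 5, Hsp90aa1 and Hsp90ab1 differed by 0.03 and -0.12, and Hspa8 by -1.41 without RFP-negative EtOH neuron 2. Within the 24 neurons, Hspa8 and Dnajc6 differed by 0.21 and 0.27, and without the neurons above the trough for Mbp, Hspa8 differed by 1.05.

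The median over the 9 genes was -0.34, and over all 1024 genes it was 0.31, so 2 of the 9 lay above the all-gene median. Differences of at least 1 on the log2 scale were reached upwards by 2 of 9 genes, where 26.3% of all genes reached them, and downwards by 1 of 9, where 15.7% did. These shares are near the background. Scaling the neurons to a common upper quartile gave an all-gene median of -0.20, and left 2 of 9 genes above it. It took Hspa12a and Cryab to 0.90 and 0.87 and Hsp90ab1 and Chordc1 to -1.15 and -1.07, so that 0 of 9 genes were higher and 3 lower by at least 1, beside 13.6% and 26.2% of all genes. The median of the 9 was 0.06 with arithmetic means and 0.16 without the neurons that had Mbp above the trough. Without RFP-positive EtOH neuron 12 the Cryab difference was 0.78, and without neuron 9 the Hspa12a difference was 0.95, so each went below 1. With group medians they were 0.17 and 0.45, and with arithmetic means 5.89 and 4.43. The Cacybp difference was -3.66 with group medians and -0.92 with arithmetic means. In total, 25 other genes of the 1024 had differences as low as that of Cacybp or lower.

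**Figure D3:**
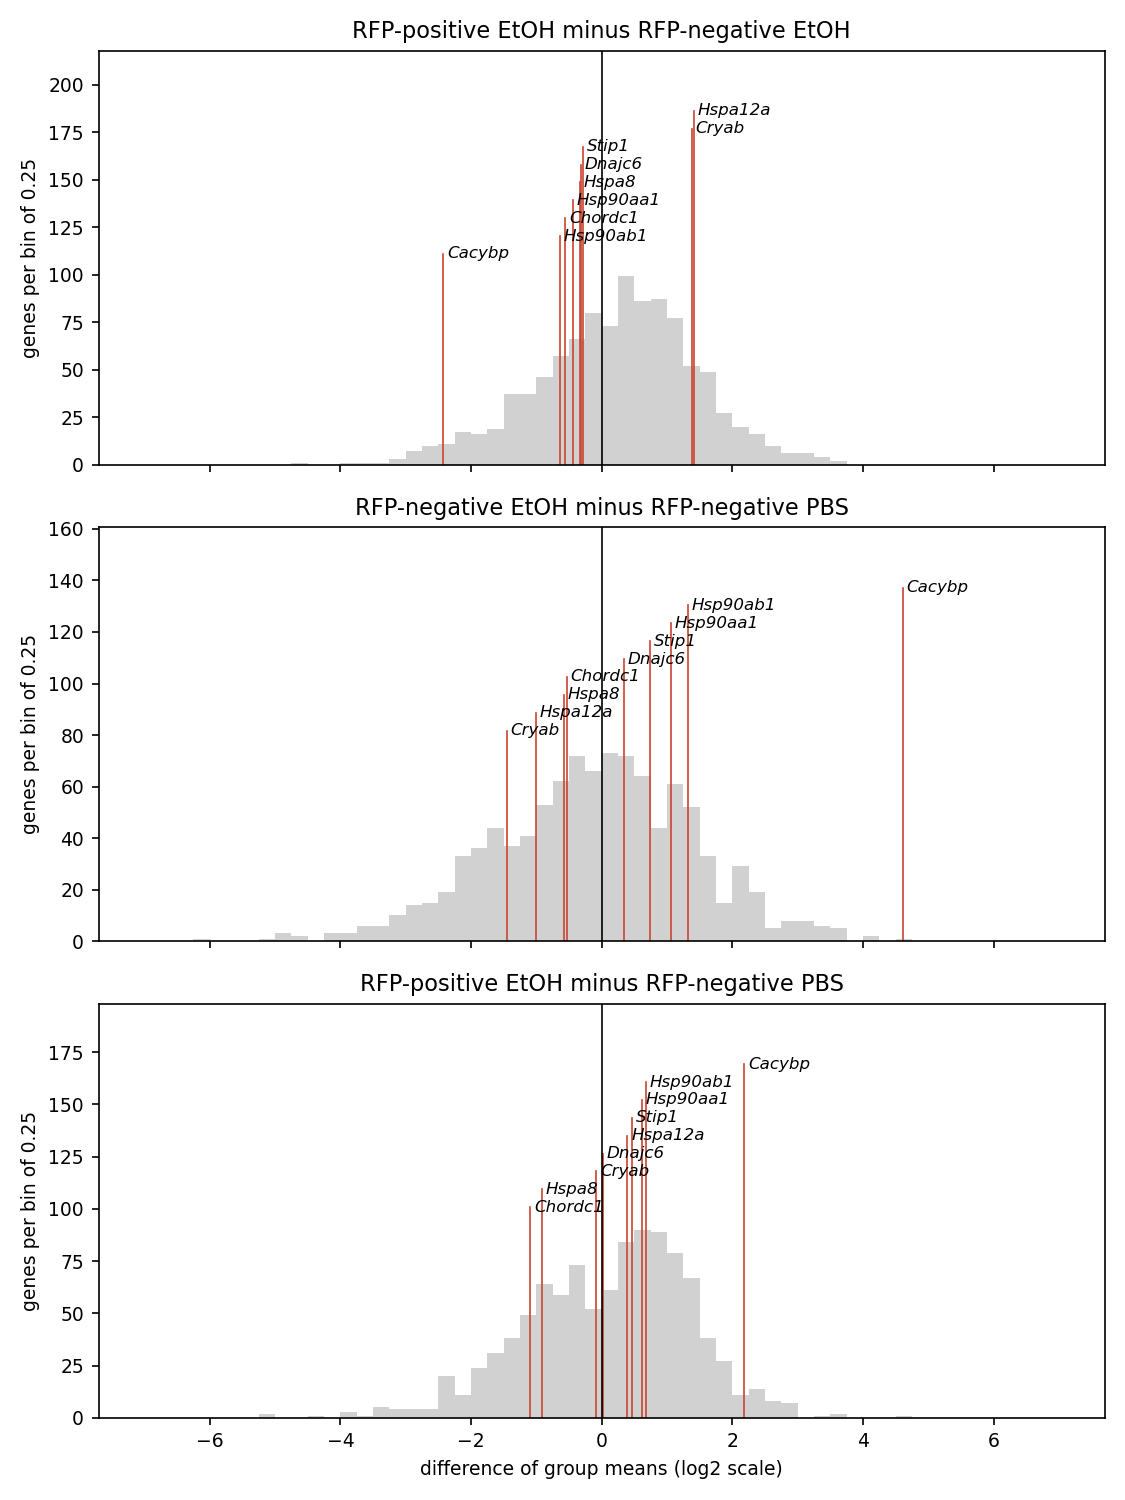
Differences of group means on the log2 scale for all 1024 genes (grey bars, genes per bin of 0.25) and for the 9 chaperone genes (red lines, whose height only serves the labels) in the 3 comparisons. Cacybp lies at the edge of the distribution, at -2.43, 4.61 and 2.18 from top to bottom, and the other 8 genes lie within its bulk.

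The comparison of RFP-negative EtOH with PBS neurons asks how exposed neurons without reporter activity differed from those of the injection control. Cacybp had the highest upward difference of all 1024 genes, 7.27 ± 2.96 (SD, n = 7) against 2.66 ± 1.96 (SD, n = 6), or 4.61, and this exceeded both SDs. It stayed between 4.09 and 5.42 when any neuron was left out and was 4.41 within the 24 neurons with shared values. Some downward differences were larger in size, with 1 gene in the bin that starts at -6.25. Hsp90ab1 and Hsp90aa1 had higher means in the EtOH neurons by 1.32 and 1.06, and Cryab and Hspa12a lower means by -1.46 and -1.01, each less than the larger SD. Hspa8, Chordc1, Stip1 and Dnajc6 differed by -0.58, -0.54, 0.75 and 0.34.

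Differences of at least 1 were reached upwards by 3 of 9 genes, beside 23.8% of all genes, and downwards by 2 of 9, beside 26.8%. The median of the 9 was 0.34, beside -0.06 for all genes, and 5 of 9 lay above the latter. After scaling to a common upper quartile, where the all-gene median was 0.49, 4 of 9 genes were higher by at least 1, with Stip1 at 1.30, and 0 lower, beside 35.4% and 18.3% of all genes. A single PBS neuron set several of these values. Without PBS neuron 6 the Cryab and Hspa12a differences were -0.36 and -0.31, and without PBS neuron 5 the Hsp90ab1 difference was 0.62. Within the 24 neurons, Hsp90ab1, Cryab and Hspa12a differed by 0.81, -0.39 and -0.43, Chordc1, Hspa8 and Stip1 by -0.91, -0.87 and 0.46, and 2 of the 9 genes, Cacybp and Hsp90aa1, reached 1. Mbp, which was above the trough in 4 of 6 PBS neurons and in a single RFP-negative EtOH neuron, moved with the groups, with means of 6.96 and 3.25. Without the neurons above it, which leaves 6 and 2 neurons, the Cryab difference was 0.00802 and that of Hsp90ab1 0.0156. The astrocyte markers Slc1a2 and Aldoc also had lower means in RFP-negative EtOH than in PBS neurons, by -2.06 and -2.13. Without the neurons above the trough for Gad1, an interneuron marker, the Hsp90aa1 difference was 0.21.

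RFP-positive EtOH neurons were also set beside the PBS neurons, which differ from them in both exposure and reporter state. This comparison shares its PBS neurons with the one above and its RFP-positive neurons with the first, so the 3 are not independent. Cacybp had a higher mean by 2.18, 4.84 ± 3.43 against 2.66 ± 1.96, less than the larger SD. The difference was 1.19 within the 24 neurons, where Cryab and Hspa12a reached 1.23 and 1.02, and 0.98 with group medians. Chordc1 had a lower mean by -1.10, which rested on PBS neuron 1, since it was 0.31 without that neuron. The other 7 genes differed by -0.92 (Hspa8) to 0.68 (Hsp90ab1).

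Differences of at least 1 were reached upwards by 1 of 9 genes, beside 24.9% of all genes, and downwards by 1 of 9, beside 19.2%. The median of the 9 was 0.39, beside 0.26 for all genes, and 5 of 9 lay above the latter. Without PBS neuron 6, 5 of the 9 genes reached 1 in either direction, and without PBS neuron 2 or RFP-positive EtOH neuron 5, 4 did. The order of the 3 group means was RFP-negative EtOH, RFP-positive EtOH, PBS from high to low for Hsp90ab1, Hsp90aa1, Stip1, Dnajc6 and Cacybp. How many of all genes share this order was not counted, so no pattern of the chaperone genes is read from it. By group medians, RFP-positive EtOH neurons came first for both Hsp90 genes and PBS neurons second for Dnajc6, whose difference between RFP-positive EtOH and PBS of 0.02 turned its sign in 9 of 21 omissions of a neuron. In these 5 genes, the difference of Cacybp between the first and the last group was the only one beyond the larger SD, and no neighbours in the order differed by more than it.

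The other genes of the chaperone network came from lists that hold 140 genes, of which 24 were in the table. The other Hsp70 and Hsp110 genes (0 of 12) and the other small heat shock and mitochondrial chaperonin genes (0 of 11) had no row, and genes not in the table were not analysed here. Of the 24, 16 had higher and 8 lower means in RFP-positive than in RFP-negative EtOH neurons, 7 and 2 of them by at least 1, with a median of 0.57. Of all 1024 genes, 614 had higher means, 26.3% and 15.7% were higher and lower by at least 1, and the median was 0.31, so these counts are near the background. Between RFP-negative EtOH and PBS neurons, 9 had higher and 15 lower means, 2 and 10 by at least 1 (23.8% and 26.8% of all genes), with a median of -0.88 beside -0.06. Between RFP-positive EtOH and PBS neurons, 11 had higher and 13 lower means, 4 and 8 by at least 1 (24.9% and 19.2% of all genes), with a median of -0.12 beside 0.26. Of all 1024 genes, 497 and 579 had higher means in the last 2 comparisons. In the 3 comparisons 14, 9 and 11 of the 24 lay above the all-gene median.

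Among the 9 measured genes of other Hsp90 and Hsp70 co-chaperones and stress factors, St13 and Stub1 showed the opposite order of groups. St13 (Hip), which stabilises the ADP-bound form of Hsp70, exceeded the trough in 4 of 7, 5 of 15 and 1 of 6 RFP-negative EtOH, RFP-positive EtOH and PBS neurons. Its means were 6.05, 4.01 and 3.08. Stub1 (CHIP), a ubiquitin ligase that takes clients from Hsp70 and Hsp90, was above it in 1 of 7, 6 of 15 and 2 of 6, with means of 2.66, 4.54 and 5.05. Hsp90b1, the Hsp90 of the endoplasmic reticulum, exceeded it in 0 of 7, 7 of 15 and 3 of 6, and the cochaperone Ptges3 (p23) in 4 of 7, 11 of 15 and 6 of 6. Sugt1 (Sgt1), which binds Hsp90 through a CS domain, had means of 2.58, 3.40 and 4.57. Each difference between group means of these 5 genes was smaller than the larger SD.

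**Figure D4:**
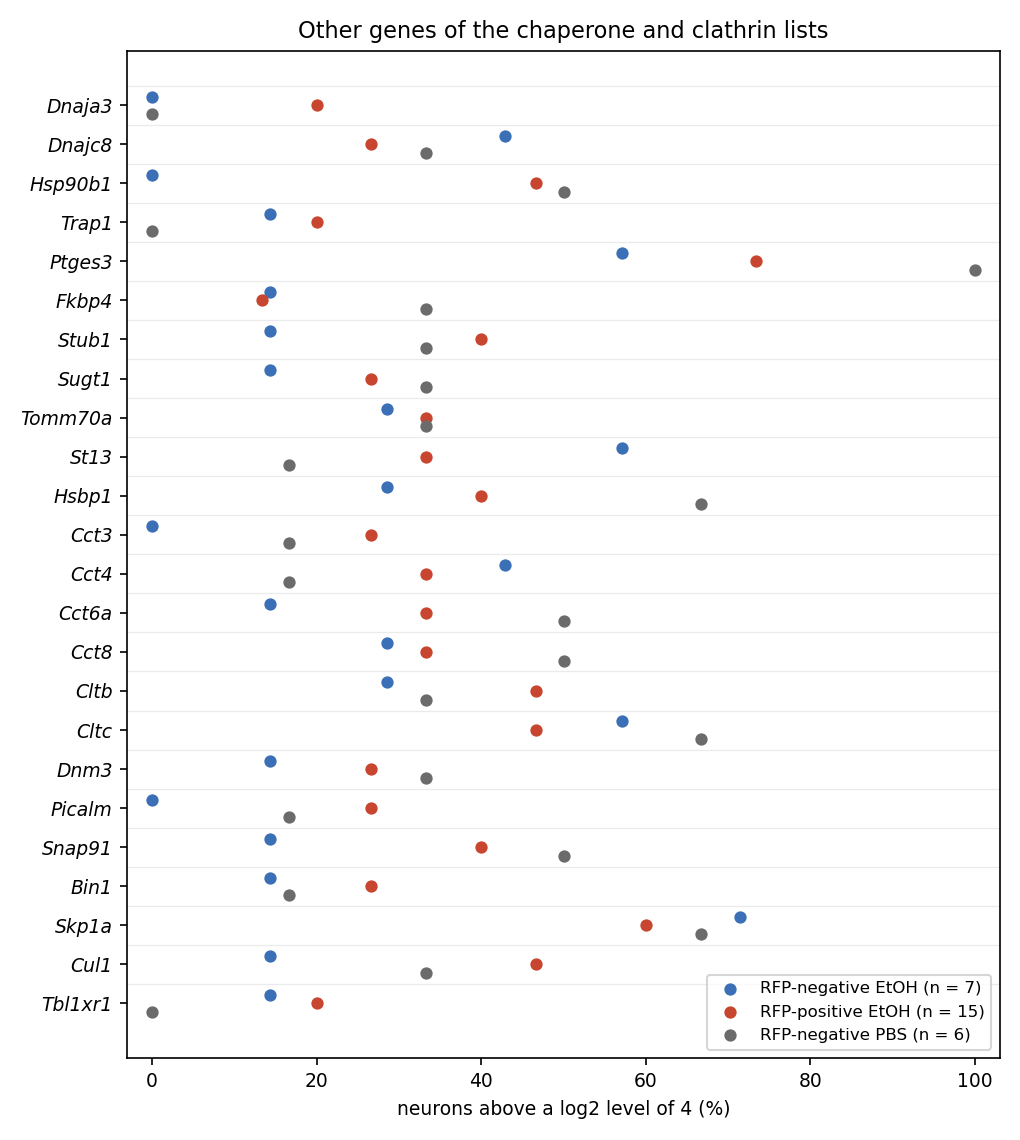
Share of neurons above a log2 level of 4 (horizontal axis, %) for the 24 other genes of the chaperone, clathrin and Cacybp partner lists, by group. Hsp90b1, Cct3 and Picalm are at 0% in RFP-negative EtOH neurons and above it in both other groups, and Ptges3 reaches 100% in PBS neurons.

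Of the clathrin genes with which auxilin works, 6 of 23 were in the table. In RFP-positive against RFP-negative EtOH neurons, 5 of 6 had higher means, 4 by at least 1, with a median of 1.43, where 614 of all 1024 genes had higher means, 26.3% of the 1024 by at least 1, and the all-gene median was 0.31. The 4 were Picalm (2.01), Snap91 (1.78), which like Picalm encodes a clathrin assembly protein, the light chain gene Cltb (1.64) and Bin1 (1.22), while the heavy chain gene Cltc differed by -0.43 and Dnajc6 itself by -0.32. Between RFP-negative EtOH and PBS neurons 5 of 6 had lower means, where 527 of all 1024 genes did. By at least 1, 3 of the 6 were lower, beside 26.8% of all genes. Both comparisons share the 7 RFP-negative EtOH neurons. Between RFP-positive EtOH and PBS neurons, 4 of the 6 had higher and 2 lower means. By at least 1, 2 were higher and 2 lower, beside 24.9% and 19.2% of all genes. The median of the 6 was 0.46 there, beside 0.26 for all genes. Of the partners of Cacybp, Skp1a, the adaptor of SCF ubiquitin ligases, was above the trough in 5 of 7, 9 of 15 and 4 of 6 neurons, with means of 6.70, 5.54 and 5.73. Of the 4 measured chaperonin genes Cct3, Cct4, Cct6a and Cct8, 3 had higher means in RFP-positive than in RFP-negative EtOH neurons, beside 614 of all 1024 genes. The median of the 4 was 0.57, beside 0.31 for all genes. Each difference of a gene named here was smaller than the larger SD of its groups.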

How the data were processed

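Intracellular contents of single neurons were made into libraries with the SMARTer Ultra Low Input and Nextera XT kits and sequenced as single reads of 51 cycles, per the labels' protocols. CASAVA 1.8 and the FASTX-Toolkit were used for demultiplexing and quality filtering, per the labels' protocols. Bowtie2, Cufflinks 2.2.1 and the build GRCm38 are named in the submitters' processing notes, without settings. The authors deposited 1 log value per gene and neuron, taken here as log2, although the base and the steps from Cufflinks to these values are not given in the sources used here. Another base would scale all differences by a common factor. The 1024 genes had passed an unstated cut-off, so they are a selection. The table held 0 columns of other samples.

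Neurons were grouped by title. The series' design text counts 5 PBS neurons, whereas all 6 labelled ones entered here. Their time course label names EtOH, whereas titles and exposure labels give PBS and were followed. Each group counted as 1 sample. Group means, their differences and neurons above the trough at 4 (histogram bins of 0.25) were computed in Python 3.11.15 with pandas 2.3.3, and exact intervals (95%) with scipy 1.17.1. A difference of at least 1 was counted in members and in all genes. The computation recovered the shifts put into simulated data. Named were the 9 members, the listed genes and the 2 most similar genes per member, passing over pseudogenes, predicted and Y-linked genes and Xist. Members, lists and limits were chosen with earlier results of these data known. Alternatives tried were group medians, arithmetic means, equal upper quartiles, other limits and the omission of neurons with Gad1 or Mbp above the trough, of those with under 5 shared values and of each neuron in turn. A further glial marker is not reported here.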

Additional observations from a re-analysis of the deposited data

Results flagged for a closer look

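In the groups of 6 and 7 neurons, 20 sets of values were examined for a neuron far from the rest of its group, and 6 held such a neuron, where chance alone gives about 1 in 20. The values have separate low and high modes, so a lone neuron in another mode is picked out readily, and the rate of 1 in 20 need not hold here. The sets also share neurons, so no excess over chance is read from the 6. PBS neuron 6 stood apart for Hspa12a, at 6.40 where the other 5 lay between 1.72 and 2.88, and for Cryab, at 9.43 where they lay between 2.27 and 3.68. PBS neuron 2 had Hspa8 at 5.05, where the others lay between 9.13 and 10.2. Chordc1 was at 10.6 in PBS neuron 1, against 1.57 to 2.81 in the others, and at 6.02 in RFP-negative EtOH neuron 5, against 2.04 to 3.07. RFP-negative EtOH neuron 2 had 2 of the 9 genes above the trough, where the other 6 neurons had 5 to 7.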

How the results depend on the processing

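No paired analysis was possible because the replicate numbers only name neurons and no label ties a number to an animal, litter or day. The number of the 9 genes with a difference of at least 1 was 3 for RFP-positive against RFP-negative neurons after EtOH, 5 for RFP-negative EtOH neurons against PBS, and 2 for RFP-positive ones against PBS. With a limit of 2 it was 1 in each. Among the 24 neurons with shared values it was 2 in the second and 4 in the third comparison, and in the third it was 4 with arithmetic means and 6 without the neurons above the trough for Mbp, where 11 and 2 neurons remained. With a common upper quartile the first 2 counts were 0 higher and 3 lower, against 2 and 1, and 4 higher and 0 lower, against 3 and 2. Leaving out single neurons gave 2 to 4, 2 to 6 and 2 to 5. The lowest counts of the second were 2 without PBS neuron 6 and 3 without PBS neuron 5. The medians of the 9 genes ranged over left-out neurons from -0.62 to -0.06, from -0.35 to 0.78 and from -0.17 to 0.53, so in the last 2 their sign depended on single neurons. Of the differences of at least 1, that of Cryab between RFP-negative EtOH and PBS neurons became 0.00802 without neurons above the trough for Mbp and that of Hsp90ab1 0.0156, while that of Hsp90aa1 became 0.21 without those above it for Gad1, and that of Chordc1 between RFP-positive EtOH and PBS neurons became 0.31 without PBS neuron 1, the highest of its left-out values, of which the lowest was -1.49. The cause was not tested. Cacybp kept its direction in all 3 comparisons under every alternative run. Shares of neurons above a limit of 3 or 5 stayed within the exact intervals for all 9 genes. Depth is unknown, so a low value may be a transcript missed in a small library.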
